A study of Mus musculus with 48 samples.

Results

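The comparison described here is between the striata of BACHD-ΔN17 mice aged 7 months and the striata of BACHD-ΔN17 mice aged 2 months. It holds 8 of the 48 expression arrays of the series, 4 at each age, and the arrays were chosen by region, genotype and age label alone. The series profiled cortex and striatum of 24 mice, wild-type or BACHD-ΔN17, at 2, 7 and 11 months, with 4 mice per group, on Illumina MouseRef-8 bead arrays. All mice were of the FvB/NJ strain, and every group held 2 males and 2 females, each a separate animal. The 2 ages were measured in different mice, so the comparison is between animals and not within an animal over time. Beside it stand the striata of wild-type mice at 2 and 7 months, the striata of BACHD-ΔN17 mice at 11 months, and the cortices of the same 8 BACHD-ΔN17 mice. Mice are numbered 1 to 4 within a group only to name them.

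Huntington's disease is modelled in BACHD mice by a mutant human huntingtin gene on a bacterial artificial chromosome, whose protein has an expanded glutamine repeat, and ΔN17 marks the version lacking the N-terminal segment of that protein. Most neurons of the striatum are inhibitory projection neurons, which carry either the D1 or the D2 dopamine receptor and are the cells most affected in the disease. Their dopamine, cannabinoid and calcium signalling genes are known to lose expression in Huntington's disease, while astrocytes and microglia, the support and immune cells of the brain, are known to become reactive around failing neurons.

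The striatum label was checked first. Every level below is a normalized log2 intensity and every difference is in log2 units. Drd1 lay at 12.4 to 13.1 in the 8 striata and at 8.24 to 8.87 in the cortices of the same mice. Drd2, Ppp1r1b, Rgs9 and Pde10a were also higher in the striatum in 8 of 8 mice. Slc17a7, the vesicular glutamate transporter of cortical neurons, lay at 13.3 to 13.7 in the cortices. In the striata it stood at 7.31, 8.96, 7.02 and 10.40 at 2 months and at 6.69, 8.71, 6.79 and 6.92 at 7 months, so mouse 4 at 2 months and 1 mouse more at each age were above the others. Tbr1, a transcription factor of cortical neurons, was detected in 3 of the 8 striata. None of 9 tested cortical excitatory neuron genes was called between the ages, their mean level lay at 7.41 to 8.47 at 2 months and 7.28 to 8.05 at 7 months, and the part of such signal in the results was not tested. Htt, the mouse huntingtin gene, stood at 8.03, 7.19, 7.14 and 7.05 at 2 months and at 7.16, 7.50, 6.86 and 7.01 at 7 months. The groups overlapped (log2 difference -0.22, adjusted p = 0.613), and the labels do not say whether this probe reads the human transgene. Xist and Kdm5d fitted the sex label of every striatal array.

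The 8 arrays detected 12888 to 14378 of 25697 probes each, a probe counting as detected at a detection p under 0.05. The labels give every array an internal sample number: 4, 11, 15 and 35 for mice 1 to 4 at 2 months and 13, 20, 29 and 31 at 7 months. Mouse 1 at 2 months belongs to the dim arrays with numbers 1 to 8. Where the numbers are split into consecutive eights, a grouping made here, numbers 9 to 16 hold 2 arrays at 2 months and 1 at 7 months. The mouse identifiers also start differently at each age, for a reason the labels do not give, so that age and this prefix cannot be told apart.

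Between 2 and 7 months, 25 of 36 projection neuron genes and 6 of 15 interneuron genes fell in the BACHD-ΔN17 striatum, and 13 of 18 activated microglia genes and 9 of 14 reactive astrocyte genes rose. Of 11225 features tested, limma called 1040, which is 9.27% of them, at an adjusted p under 0.05 (Benjamini-Hochberg), and 2623 had an unadjusted p under 0.05. Of the calls, 436 were higher (3.88% of features) and 604 lower (5.38%) at 7 months, so 41.9% were higher. The median size of a called change was 0.55 on the log2 scale, and 113 calls (1.01% of features) exceeded 2-fold, 72 of them higher and 41 lower. In 904 of the 1040 called features the 4 arrays of one age did not overlap the 4 of the other, against 15.6% of all features tested (7.18% higher and 8.45% lower). The calls were made from these same 8 arrays, so this contrast was largely fixed by the choice of features. Normalizing by scale and not by quantiles called 330 features, 182 higher and 148 lower (55.2% higher). Leaving out mouse 3 at 7 months called 610, and taking the eights of internal numbers as a fixed factor called 683. Within numbers 9 to 16 alone, 1035 of the 1040 called features had the same sign, but those 3 arrays are among the 8 that made the calls, so their sign was largely fixed by the choice of features.

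The same ages in wild-type mice gave 12 calls, 0.107% of features, 9 higher (0.0802%) and 3 lower (0.0267%) (781 at an unadjusted p under 0.05). The difference between the age change of BACHD-ΔN17 mice and that of wild-type mice, tested as an interaction, was called for 306 features (2.73%), 84 higher (0.748%) and 222 lower (1.98%). Under scale normalization this test called 74, 39 higher and 35 lower. The interaction uses the same 8 BACHD-ΔN17 arrays. The features that rose had a median log2 difference of 0.57 in BACHD-ΔN17 and 0.07 in wild-type mice, and those that fell had medians of -0.53 and -0.03. These features were chosen by their change in BACHD-ΔN17 mice, so the larger medians there are partly fixed by that choice. The age changes of BACHD-ΔN17 and wild-type mice share no array.

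**Figure D1:**
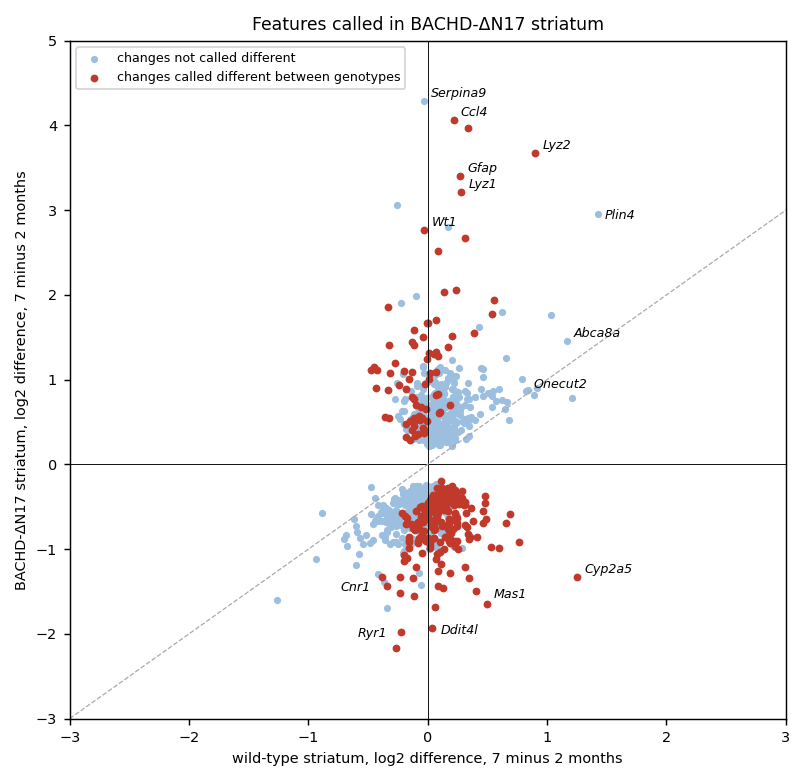
Each point is 1 of the features called between 7 and 2 months in BACHD-ΔN17 striatum. The horizontal axis gives the log2 difference of 7 minus 2 months in wild-type striatum and the vertical axis the same in BACHD-ΔN17 striatum (4 mice per group), red marks the features whose changes were called different between genotypes, and the dashed line marks equal change. Ccl4, Gfap and Lyz1 lie near 0 on the wild-type axis, Abca8a and Onecut2 lie near the line of equal change, and Cyp2a5 lies in the quadrant where the genotypes moved in opposite directions.

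Transcripts of the projection neuron list fell as a group. This list, like the others, was drawn up with earlier results of these data known, so its count is not an independent test. Its member Ddit4l read higher in cortex than in striatum at 2 months. Of 36 tested members of this marker list, 25 fell and 0 rose against 5.38% lower calls over all features, with a median log2 difference of -0.46 against 0.0074 over all features, and 2 of 36 differences were above 0. In wild-type striatum 0 of 36 were called, with a median of -0.02, and the interaction was called lower for 18, against 1.98% over all features. The mean level of the list's tested genes lay at 11.80 to 11.89 in the 4 mice at 2 months and at 11.13 to 11.38 at 7 months, against 11.76 to 12.06 in the 8 wild-type striata. These are bulk tissue values, in which fewer cells of a type and less RNA per cell cannot be told apart. Under scale normalization 12 of the 36 were called lower.

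Scn4b encodes a sodium channel beta subunit concentrated in projection neurons. Its 4 mice at 2 months read 13.91, 14.09, 14.18 and 14.17, and the 4 at 7 months 13.12, 13.21, 12.74 and 13.08. The ages did not overlap, and all 4 mice at 7 months lay below the wild-type range of 14.06 to 14.51. The decrease was 2.07-fold (log2 -1.05, SE 0.10, adjusted p = 7.41e-08), and it differed from the wild-type change of -0.05 (interaction adjusted p = 0.000126). Pde10a, the striatal phosphodiesterase that breaks down cyclic nucleotides, went from 11.36, 11.45, 11.50 and 11.60 to 10.60, 10.74, 10.47 and 10.63. These groups were also apart, and the change of -0.87 (adjusted p = 6.23e-06) differed from that in wild-type mice (interaction adjusted p = 0.0043). Rgs4 and Rgs9, regulators that shorten G protein signals, fell by 0.85 and 0.55 on the log2 scale (adjusted p = 2.64e-07 and 4.79e-06). With scale normalization Rgs9 missed the threshold (adjusted p = 0.0863).

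Ppp1r1b encodes DARPP-32, the phosphoprotein that integrates dopamine signals in projection neurons. It read 14.41, 14.61, 14.69 and 14.77 at 2 months and 14.28, 14.36, 14.23 and 14.31 at 7 months, without overlap. The log2 difference was -0.32 (SE 0.08, adjusted p = 0.00661). Other probes of the gene gave -0.73 and -0.57, both called. The interaction of -0.36 did not pass (adjusted p = 0.0666), and scale normalization gave an adjusted p of 0.39. Bcl11b (-0.39) and Foxp1 (-0.56), transcription factors of these neurons, also fell. Gad1, which makes the transmitter GABA, had a log2 difference of 0.18, and Slc32a1, which loads GABA into vesicles, one of -0.08, and neither was called. These 4 genes were named after their values were seen.

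The largest decreases of the list were in Ryr1, Ddit4l, Mas1 and Cnr1. Ryr1, a calcium release channel of the endoplasmic reticulum, read 9.11, 9.17, 9.45 and 9.30 at 2 months and 7.38, 7.32, 7.41 and 7.02 at 7 months. All 4 older mice lay below the wild-type range of 8.97 to 9.92, and the decrease was 3.94-fold (log2 -1.98, SE 0.22, adjusted p = 7.73e-07; interaction -1.75, adjusted p = 0.00153). Of 3 other Ryr1 probes, 2 fell by 2.01 and 1.29, and 1 near the detection floor gave 0.11 (adjusted p = 0.841). Ddit4l, an inhibitor of the mTOR growth pathway, read 10.52, 10.63, 10.79 and 10.64 and then 8.85, 8.92, 8.44 and 8.64, a 3.82-fold decrease (log2 -1.93, SE 0.15, adjusted p = 1.41e-09). The groups were apart by more than the whole spread within either, and in wild-type striatum the difference was 0.03 (interaction -1.97, adjusted p = 2.22e-06).

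Mas1, a receptor for an angiotensin peptide, stood at 7.63, 7.39, 7.30 and 7.52 at 2 months. At 7 months it read 5.62, 6.39, 5.28 and 5.96 and was detected in 2 of 4 mice, so its lowest values lie at the floor. The log2 difference was -1.65 (adjusted p = 0.000288) against 0.50 in wild-type mice (interaction -2.14, adjusted p = 0.00252). Cnr1, the cannabinoid receptor on the axon terminals of these neurons, read 8.57, 8.44, 8.43 and 8.36 and then 7.01, 7.16, 6.75 and 7.16. The groups did not overlap, the decrease was 2.70-fold (log2 -1.43, SE 0.19, adjusted p = 1.19e-05), and the interaction was -1.09 (adjusted p = 0.0225).

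**Figure D2:**
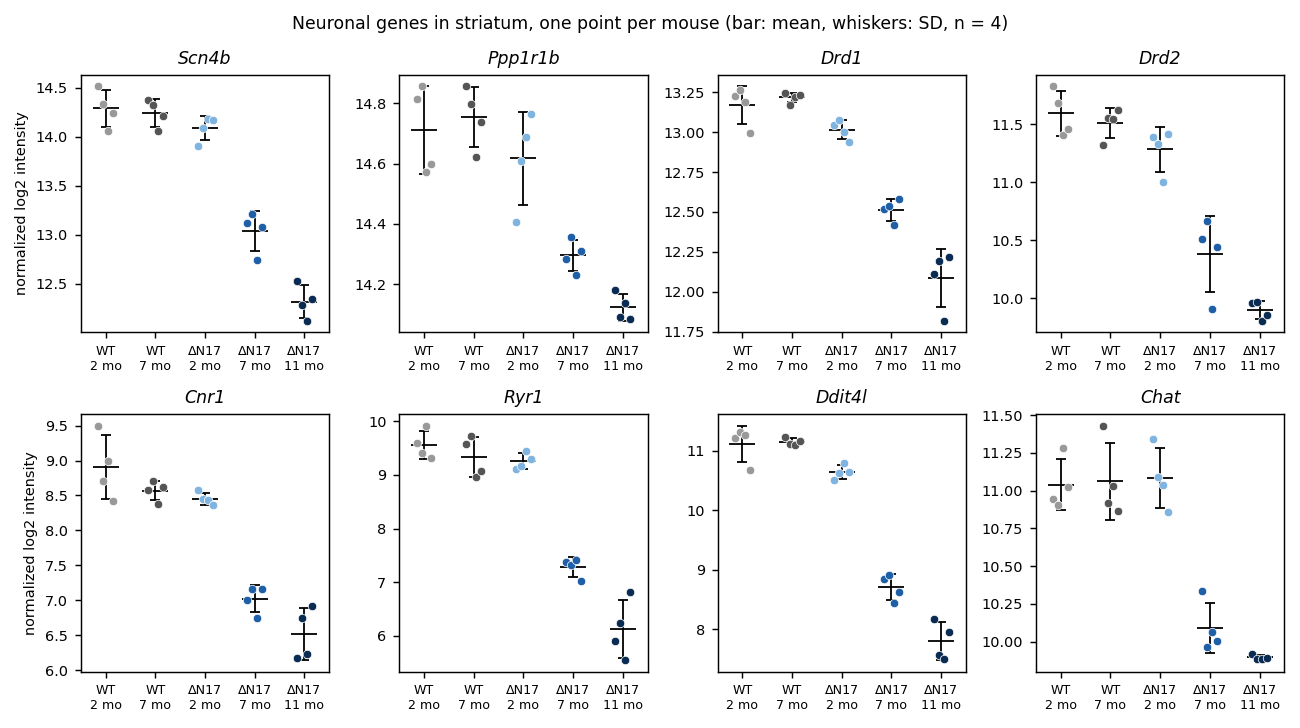
Normalized log2 intensity (vertical axes, one scale per gene) of 8 neuronal genes in the striatum of each mouse, for wild-type (WT) mice at 2 and 7 months and BACHD-ΔN17 (ΔN17) mice at 2, 7 and 11 months; bars are means and whiskers are SD (n = 4). The 4 BACHD-ΔN17 mice at 7 months lie below all 4 at 2 months in each of the 8 panels. For Scn4b, Drd1, Ryr1, Ddit4l and, by little, Chat, the mice at 11 months lie lower again.

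The dopamine receptors of both output pathways fell. Drd1, of the direct pathway, read 13.04, 13.08, 13.00 and 12.94 at 2 months and 12.52, 12.54, 12.42 and 12.58 at 7 months. The decrease was 1.42-fold (log2 -0.50, SE 0.08, adjusted p = 0.000179; interaction -0.55, adjusted p = 0.00832), and under scale normalization it did not pass (adjusted p = 0.103). Drd2, of the indirect pathway, read 11.39, 11.33, 11.00 and 11.41 and then 10.51, 10.67, 9.91 and 10.44, the lowest value of each age coming from a different animal. The Drd2 decrease was 1.86-fold (log2 -0.90, SE 0.13, adjusted p = 5.22e-05; interaction -0.82, adjusted p = 0.0149). The difference between both receptors was not tested. Of 8 tested direct pathway genes 2 fell, against 5.38% over all features, and the median was -0.17. They were Drd1 and Ido1, a tryptophan-degrading enzyme (-0.62), and under scale normalization neither passed (adjusted p = 0.082 for Ido1). Of 6 tested indirect pathway genes 3 fell, and the median was -0.75. Beside Drd2 these were Gpr6, an orphan receptor (-0.87), and Upb1, an enzyme of pyrimidine breakdown (-1.34).

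Of 44 tested genes of calcium and cAMP signalling 18 fell and 1 rose, against 5.38% lower and 3.88% higher calls over all features. The median was -0.30, and the interaction was called lower for 10, against 1.98% over all features. Ryr1 and Pde10a are in this list and in the projection neuron list. The decreases included Atp2b1, a calcium pump of the cell membrane, at 11.93, 12.06, 11.75 and 12.08 at 2 months and 11.26, 11.26, 10.92 and 11.09 at 7 months (log2 -0.82, adjusted p = 3.01e-05). The ages did not overlap, and wild-type mice differed by -0.05. Camkk2, a calcium-dependent kinase, changed by -0.80. The gene that rose was Prkar1b, a regulatory subunit of protein kinase A (0.41, adjusted p = 0.0036). Scale normalization called 6 of the 44 lower.

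Of 28 tested potassium channel genes 8 fell, against 5.38% over all features, and 0 rose. The median was -0.26, and the interaction was called lower for 4, against 1.98% over all features. The lists overlap, and Kcnip2 and Kcnj4 are counted in the projection neuron list too. Among the genes that fell were the partners of a single channel complex, the pore subunit Kcnd2 and its calcium-binding auxiliary subunits Kcnip2 and Kcnip3. Kcnip2 read 10.61, 10.62, 10.65 and 10.75 at 2 months and 9.90, 10.28, 9.55 and 9.96 at 7 months, with mouse 2 highest and mouse 3 lowest of the older group (log2 -0.73, adjusted p = 0.000335; interaction -0.97, adjusted p = 0.00231). Kcnd2 read 12.35, 12.28, 12.26 and 12.26 and then 11.97, 11.84, 11.84 and 11.85, a small change without overlap (-0.41, adjusted p = 0.000915). Kcnip3 changed by -0.79 (adjusted p = 0.000162). With scale normalization Kcnd2 missed the threshold (adjusted p = 0.222) and 2 of the 28 genes were called lower.

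At the synapse, 4 of 18 tested glutamate receptor and postsynaptic genes fell and 0 rose, against 5.38% lower calls over all features, with a median of -0.24. All 4 encode scaffold proteins of the postsynaptic density: Shank3 (-0.68), Dlgap3 (-0.58), Homer1 (-0.56) and Dlg4 (-0.42). Homer1 read 12.67, 12.52, 12.63 and 12.33 at 2 months and 12.20, 12.12, 11.71 and 11.87 at 7 months, without overlap (adjusted p = 0.00129). None of the 18 was called in the interaction, and scale normalization called none of them lower. Of 7 GABA receptor genes 1 fell, against 5.38% over all features. It was Gabrd, a subunit of extrasynaptic receptors (-0.77, adjusted p = 6.9e-05).

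Immediate early genes, which neurons switch on with activity, fell in 3 of 21 cases against 5.38% lower calls over all features, with a median of -0.47 beside -0.23 in wild-type mice. The 3 were Inhba, Egr2 and Homer1, which is also in the postsynaptic list. Inhba, a subunit of activin, read 9.79, 9.70, 9.69 and 9.63 at 2 months and 8.43, 9.24, 7.93 and 8.10 at 7 months, with mouse 2 nearest the younger group (log2 -1.28, adjusted p = 0.000416; interaction -1.46, adjusted p = 0.0107). Egr2, an activity-dependent transcription factor, read 9.71, 10.54, 10.99 and 10.08 and then 9.23, 9.92, 8.15 and 7.60, and the groups overlapped. Its difference of -1.61 (adjusted p = 0.0306) stood beside -1.26 in wild-type mice (interaction adjusted p = 0.871), and without mouse 4 at 7 months it was -1.19 (adjusted p = 0.155). Fst, which encodes follistatin, the secreted inhibitor of activin, also fell. It read 7.42, 7.85, 7.69 and 8.05 at 2 months and 5.90, 5.73, 5.11 and 5.58 at 7 months, when it was detected in 2 of 4 mice, so that the size of its decrease is limited by the detection floor. The fitted log2 difference was -2.17 (SE 0.18, adjusted p = 4.2e-09; interaction -1.90, adjusted p = 5.25e-05).

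Of 15 interneuron genes 6 fell and 0 rose, against 5.38% lower calls over all features, with a median of -0.68. They included genes of cholinergic interneurons, the large local neurons that release acetylcholine, for which no list of their own was tested. Chat, the enzyme that makes acetylcholine, read 11.34, 11.09, 11.04 and 10.86 at 2 months and 10.33, 9.96, 10.06 and 10.00 at 7 months. The groups were apart, and the decrease was 1.99-fold (log2 -0.99, SE 0.12, adjusted p = 2.46e-06) against 0.02 in wild-type mice (interaction -1.01, adjusted p = 0.000777). Slc18a3, the transporter that loads acetylcholine into vesicles, read 7.72, 7.90, 8.13 and 8.13 and then 6.85, 6.83, 6.67 and 7.08. Its decrease was 2.16-fold (log2 -1.11, SE 0.16, adjusted p = 4.72e-05; interaction -1.18, adjusted p = 0.00407), again without overlap. Tacr1, the substance P receptor found on these cells, changed by -0.93 (adjusted p = 0.000713), and Lhx8, a transcription factor of their lineage, by -0.54 (adjusted p = 0.049), a call lost under most other settings. Npy, the neuropeptide of another interneuron class, went from 12.35, 12.56, 12.36 and 12.54 to 11.86, 11.98, 11.70 and 11.68 (log2 -0.65, adjusted p = 3.12e-05; interaction -0.64, adjusted p = 0.00525). Kcnc1, the remaining member of the list that fell, changed by -0.30, and under scale normalization it did not pass (adjusted p = 0.519). Sst had a difference of -0.02 and Pvalb one of -0.21, and neither was called. Sst and Pvalb were named after their values were seen.

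Chat and Slc18a3 belong to one gene locus, in which the transporter gene lies within the first intron of the enzyme gene, and both are shown because they fell together. Ddit4l is shown as a projection neuron list gene with one of the larger decreases. The windows of 300 bases lie mostly before the transcript start and end 50 bases after it, as given by RefSeq on build GRCm38.p6, at chr14:32465860-32466159 (minus strand) for Chat, chr14:32464801-32465100 (minus strand) for Slc18a3 and chr3:137623422-137623721 (plus strand) for Ddit4l. The Chat and Slc18a3 starts are 1059 bases apart. Capitals mark the GC box GGGCGG and the cAMP response element half-site TGACG, read on either strand.
Chat: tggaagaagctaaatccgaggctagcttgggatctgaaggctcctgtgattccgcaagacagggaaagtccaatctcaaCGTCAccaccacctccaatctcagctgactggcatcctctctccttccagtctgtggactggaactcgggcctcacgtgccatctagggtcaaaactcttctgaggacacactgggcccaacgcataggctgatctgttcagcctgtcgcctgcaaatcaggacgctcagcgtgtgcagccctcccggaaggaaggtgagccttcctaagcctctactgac
Slc18a3: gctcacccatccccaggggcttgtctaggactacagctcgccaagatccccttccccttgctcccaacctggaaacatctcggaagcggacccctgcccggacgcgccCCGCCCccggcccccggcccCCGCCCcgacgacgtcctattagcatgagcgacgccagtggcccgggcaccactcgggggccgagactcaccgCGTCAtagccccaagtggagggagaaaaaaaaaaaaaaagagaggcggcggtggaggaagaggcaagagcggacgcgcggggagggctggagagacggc
Ddit4l: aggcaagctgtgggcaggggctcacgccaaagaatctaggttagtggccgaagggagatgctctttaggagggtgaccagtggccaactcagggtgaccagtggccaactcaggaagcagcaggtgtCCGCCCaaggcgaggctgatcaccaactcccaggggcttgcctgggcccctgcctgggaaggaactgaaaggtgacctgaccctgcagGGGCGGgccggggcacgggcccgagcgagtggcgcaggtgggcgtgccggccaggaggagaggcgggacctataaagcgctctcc
The Chat window holds 1 match, a half-site, the Slc18a3 window 2 GC boxes and 1 half-site, and the Ddit4l window 2 GC boxes. The GC box was found in 35.7% of all promoter windows in the RefSeq table, in 60.1% of the windows of tested genes and in 57.6% of those of genes that fell. For the half-site these shares were 20.8%, 29.2% and 24.9%. The matches are letters in a window and were not tested as binding sites.

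Other large decreases were in Il17rc, Tnfrsf25 and Ccno. Il17rc, a subunit of the interleukin 17 receptor, read 8.61, 8.34, 8.14 and 8.44 at 2 months and 6.80, 6.96, 6.85 and 6.70 at 7 months, a wide gap between the ages (log2 -1.55, adjusted p = 1.9e-07; interaction -1.43, adjusted p = 0.000438). Both other Il17rc probes that were tested also fell. Tnfrsf25, a death receptor of the tumour necrosis factor family, read 6.96, 7.80, 7.52 and 7.53 and then 6.06, 5.46, 5.87 and 5.71, detected in 2 of 4 older mice (-1.68, adjusted p = 4.37e-05). Ccno, a cyclin needed for building multiple cilia, went from 8.07, 7.94, 7.96 and 8.26 to 6.75, 6.74, 6.14 and 6.64 (-1.49, adjusted p = 0.000117), while wild-type mice differed by 0.41 (interaction -1.90, adjusted p = 0.0015). Nrep, a neuronal protein of regeneration, fell by 0.89 on the log2 scale (adjusted p = 4.79e-06; interaction adjusted p = 0.00176).

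Microglia transcripts of the activated state rose. Of 18 tested members of that list 13 rose and 0 fell, against 3.88% higher calls over all features. The median log2 difference was 1.78 beside 0.16 in wild-type mice, and the interaction was called higher for 9, against 0.748% over all features. The mean level of these genes lay at 7.47 to 7.84 at 2 months and at 9.04 to 9.74 at 7 months, against 7.36 to 7.71 in the 8 wild-type striata. Without background correction the median was 0.85. Detection on 4 striatal arrays was enough to be tested, so a gene could enter through the older BACHD-ΔN17 arrays where it was high. With detection on at least 12 arrays, 9 of the list were called higher and 0 lower.

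Ccl4, a chemokine that draws immune cells, was detected in 1 of 4 mice at 2 months, where it read 5.00, 5.20, 5.83 and 4.96. At 7 months it was detected in 4 of 4 and read 9.50, 9.11, 9.64 and 9.00. The log2 difference was 4.07 (SE 0.32, adjusted p = 1.41e-09), and the values at 2 months lie at the detection floor of 5.62 to 6.03. In wild-type striatum at 7 months it was undetected in 4 of 4, and BACHD-ΔN17 mice were at least 10.9-fold higher. Its relative Ccl3, undetected in 4 of 4 mice at 2 months, read 7.73, 7.58, 7.61 and 7.17 at 7 months, at least 3.20-fold higher (fitted log2 2.67, adjusted p = 2.06e-08). Ch25h, which makes an oxysterol that guides immune cells, was also undetected in 4 of 4 at 2 months and read 9.40, 9.09, 9.73 and 9.02 at 7 months. It was at least 11.0-fold higher (fitted log2 3.97, adjusted p = 4.58e-12), and the interaction was 3.63 (adjusted p = 1.15e-07). For every gene given as "at least", the lower group was not above background on any array, and the bound sets the mean of the higher group against the detection floor of the lower one.

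The lysozymes Lyz1 and Lyz2, bacterial cell wall enzymes of myeloid cells, rose together. Lyz2 read 7.25, 6.52, 7.07 and 7.26 at 2 months and 10.17, 10.20, 11.47 and 10.96 at 7 months, a 12.8-fold increase (log2 3.67, SE 0.23, adjusted p = 1.51e-11). Lyz1 read 8.95, 8.65, 8.64 and 8.71 and then 11.71, 11.69, 12.47 and 11.95, a 9.30-fold increase (log2 3.22, SE 0.13, adjusted p = 1.39e-15). In both, mouse 3 at 7 months was highest and no value overlapped between the ages. In wild-type mice the differences were 0.90 and 0.28, neither called, and the interactions were 2.78 and 2.94 (adjusted p = 6.18e-06 and 7.08e-11). The genes are neighbours and near copies, and their promoter windows are shown to make this visible: the starts lie 10596 bases apart, at chr10:117292819-117293118 for Lyz1 and chr10:117282223-117282522 for Lyz2 (both minus strand, RefSeq, GRCm38.p6). Capitals mark the longest run that both windows share, 86 bases.
Lyz1: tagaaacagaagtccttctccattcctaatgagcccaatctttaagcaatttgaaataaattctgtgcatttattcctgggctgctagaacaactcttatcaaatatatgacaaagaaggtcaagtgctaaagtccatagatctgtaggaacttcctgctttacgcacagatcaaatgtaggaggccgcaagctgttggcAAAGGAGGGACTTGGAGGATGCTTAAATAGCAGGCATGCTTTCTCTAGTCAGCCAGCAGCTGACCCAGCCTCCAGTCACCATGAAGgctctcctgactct
Lyz2: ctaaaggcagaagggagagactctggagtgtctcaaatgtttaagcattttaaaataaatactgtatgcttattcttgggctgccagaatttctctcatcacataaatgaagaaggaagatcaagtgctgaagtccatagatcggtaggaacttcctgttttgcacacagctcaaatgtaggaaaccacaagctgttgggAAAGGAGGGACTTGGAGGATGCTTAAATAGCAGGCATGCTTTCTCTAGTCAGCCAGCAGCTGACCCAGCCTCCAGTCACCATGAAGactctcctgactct
Over the 300 bases, 201 (67%) are identical at the same position. Whether each array probe reads its own gene alone was not tested, so the 2 increases are not independent measurements.

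Cd74, the invariant chain of class II antigen presentation, varied widely among the mice. It read 5.88, 7.02, 8.76 and 6.45 at 2 months, detected in 3 of 4, and 10.14, 9.63, 10.87 and 8.68 at 7 months, so mouse 3 at 2 months lay just above mouse 4 at 7 months. The log2 difference was 2.80 (SE 0.52, adjusted p = 0.000682), another probe gave 2.98, and the interaction of 2.63 did not pass (adjusted p = 0.0502). Homeostatic microglia genes rose in 6 of 18 cases and fell in 0, against 3.88% higher calls over all features, with a median of 0.20. Tyrobp, the signalling adaptor of microglial receptors, read 7.26, 7.71, 7.38 and 7.56 and then 8.52, 8.69, 9.35 and 8.63, a 2.50-fold increase without overlap (log2 1.32, adjusted p = 1.06e-05; interaction 1.25, adjusted p = 0.00404). Trem2, its lipid-sensing partner, changed by 0.78 (adjusted p = 0.000177). P2ry12, Tmem119 and Cx3cr1, receptors and surface proteins that define resting microglia, had differences of 0.08, -0.24 and -0.12 and were not called; these 3 were named after their values were seen. Without mouse 3 at 7 months, 3 of the 18 homeostatic genes were called.

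**Figure D3:**
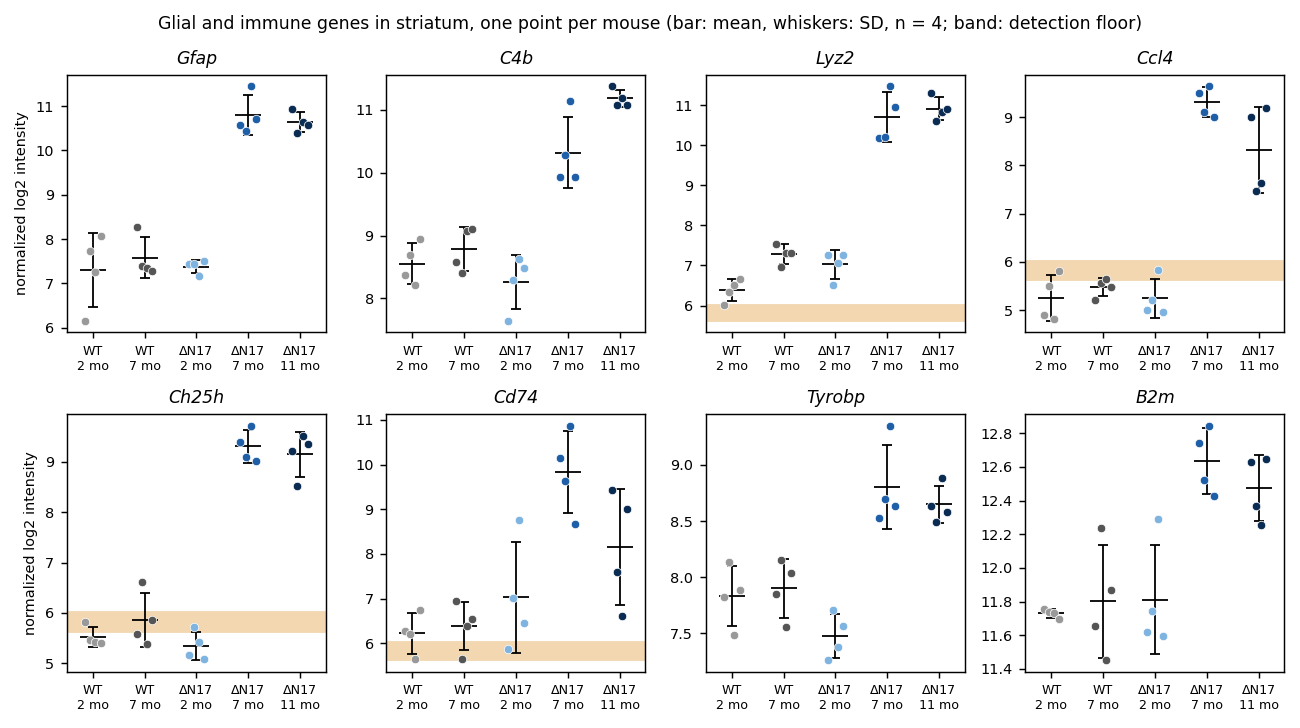
Normalized log2 intensity (vertical axes, one scale per gene) of 8 glial and immune genes in the striatum of each mouse, for wild-type (WT) mice at 2 and 7 months and BACHD-ΔN17 (ΔN17) mice at 2, 7 and 11 months; bars are means, whiskers are SD (n = 4) and the shaded band is the range of the detection floor. Ccl4 and Ch25h lie at the band at 2 months and near 9 at 7 months, and Gfap, Lyz2 and Tyrobp at 7 months lie above every wild-type mouse.

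Reactive astrocyte genes rose in 9 of 14 cases and fell in 0, against 3.88% higher calls over all features. The median was 0.91 beside 0.02 in wild-type mice, and the interaction was called higher for 6, against 0.748% over all features. With detection on at least 12 arrays, 7 of the list were called higher and 0 lower. Gfap, the intermediate filament that marks reactive astrocytes, read 7.43, 7.44, 7.16 and 7.50 at 2 months and 10.57, 10.43, 11.45 and 10.71 at 7 months. The lowest older mouse was above the highest of all 8 wild-type mice (8.27), and the increase was 10.6-fold (log2 3.41, SE 0.30, adjusted p = 1.06e-08; interaction 3.14, adjusted p = 5.25e-05). C4b, a complement component, read 7.65, 8.29, 8.63 and 8.48 and then 9.93, 10.28, 11.14 and 9.93, a 4.17-fold increase (log2 2.06, adjusted p = 3.8e-07; interaction 1.83, adjusted p = 0.00107). Mouse 3 at 7 months was again the highest. Vim, another intermediate filament, went from 7.99, 7.94, 7.96 and 8.52 to 9.08, 9.23, 9.70 and 9.01 (1.15, adjusted p = 0.000356; interaction 1.60, adjusted p = 0.00172). Osmr, a cytokine receptor, changed by 1.38 (adjusted p = 1.13e-05), and Aspg and Timp1, an asparaginase and a protease inhibitor that were undetected in 4 of 4 mice at 2 months, were at least 1.63-fold and at least 1.46-fold higher. General astrocyte genes, among them transporters and metabolic enzymes, were called in 0 of 15 cases, with a median of 0.10.

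Genes of the interferon response and of class I antigen presentation rose in 6 of 19 cases and fell in 0, with a median of 0.44. Over all features 3.88% were called higher. B2m, the small invariant subunit of class I complexes, read 11.62, 11.74, 12.29 and 11.60 at 2 months and 12.75, 12.52, 12.85 and 12.43 at 7 months, with the highest younger mouse (mouse 3) just below the lowest older one (log2 0.82, adjusted p = 0.000245; interaction 0.75, adjusted p = 0.0339). H2-D1, a class I heavy chain detected in 1 of 4 mice at 2 months, changed by 1.03 (adjusted p = 0.0172). With the eights of internal numbers as a fixed factor, 2 of the 19 were called. Here too a gene could be tested through the older BACHD-ΔN17 arrays where it was high. Requiring detection on at least 12 arrays left 4 of the list called higher and 0 lower. Lysosome genes rose in 6 of 20 cases and fell in 0, against the same 3.88%, with a median of 0.29. Grn, which encodes the lysosomal regulator progranulin, read 10.11, 10.04, 10.08 and 10.27 and then 10.71, 10.75, 10.94 and 10.71, a narrow but complete separation (0.65, adjusted p = 0.000306; interaction 0.67, adjusted p = 0.019). Ctsz and Ctss, cysteine proteases of the lysosome, changed by 0.93 and 0.94, and Ctss is also in the homeostatic microglia list. Ctse, an aspartic protease of immune cells that was undetected in 4 of 4 mice at 2 months, read 6.65, 6.42, 7.75 and 7.16 at 7 months, an increase of at least 2.22-fold (fitted log2 2.03, adjusted p = 2.64e-07).

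The older mice differed among themselves. Mouse 3 had the highest of the 4 values at 7 months in 236 of the 436 features that rose and the lowest in 296 of the 604 that fell. It was the lowest of 4 for Scn4b, Pde10a, Rgs4, Rgs9, Ppp1r1b, Drd1, Drd2, Cnr1, Ddit4l, Mas1, Fst and Homer1. It was not the lowest for Ryr1, Chat, Npy, Il17rc or Egr2. The same mouse was the highest for Gfap, C4b, Vim, Ccl4, Ch25h, Lyz1, Lyz2, Cd74, Tyrobp, B2m, Grn and Ctse, and not for Ccl3, Wt1 or Hoxc6. With that mouse left out, 610 features were called in place of 1040, and the projection neuron median was -0.41 in place of -0.46. Among the genes that did not pass without it were Shank3, Dlgap3, Gbx2, Hoxb3, Msmo1, Bcas1, Alas2, H2-D1, Lhx8 and Egr2. Shank3 had an adjusted p of 0.0674. Also lost without this mouse were Slc2a1 (0.0905), Cdkn1a (0.0509), C1qa (0.117), C1qc (0.161), Laptm5 (0.123), Lamp2 (0.144) and further genes not listed here. Sqle, Hsp90aa1 and Ccnd2 did not pass without a mouse other than this one, at adjusted p up to 0.0816, 0.06 and 0.0745.

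**Figure D4:**
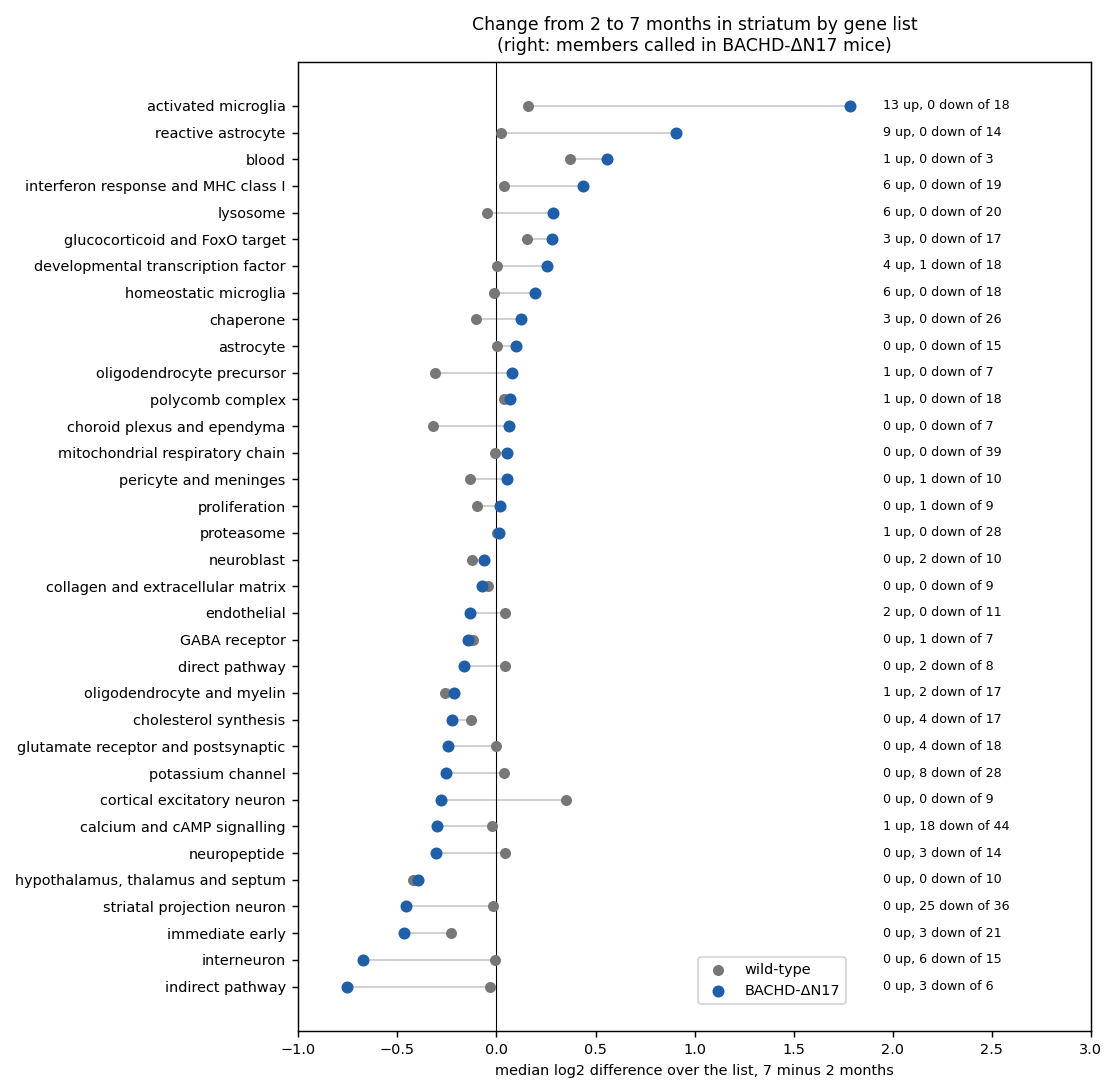
Median log2 difference of 7 minus 2 months (horizontal axis) over the tested genes of each list, for BACHD-ΔN17 striatum (blue) and wild-type striatum (grey), with the number of tested genes called higher and lower in BACHD-ΔN17 mice at the right. Activated microglia (median 1.78) and reactive astrocyte genes (0.91) lie to the right and the indirect pathway (-0.75), interneuron (-0.68) and projection neuron lists (-0.46) to the left in BACHD-ΔN17 mice, while the wild-type medians of these lists lie between -0.03 and 0.16.

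The remaining lists of cell types and pathways held few calls each. The background was 3.88% higher and 5.38% lower calls over all features. In a short list 1 or 2 calls can exceed that share, but such counts are too small to be told apart from it. Of 39 genes of the mitochondrial respiratory chain 0 were called (median 0.05), of 28 proteasome genes 1 rose (0.01), and of 9 collagen and matrix genes 0 were called. Of 17 oligodendrocyte and myelin genes 1 rose and 2 fell, with a median of -0.21 beside -0.26 in wild-type mice, the 2 being Fa2h (-0.64) and Mal (-0.54), a myelin lipid enzyme and a myelin membrane protein. A second Mal probe gave 0.0073 (adjusted p = 0.993), and the mean of its probes did not pass (adjusted p = 0.402). Of 17 cholesterol synthesis genes 4 fell, with a median of -0.23 beside -0.13 in wild-type mice. They were Insig1, a sterol sensor (-0.59), and the enzyme genes Cyp51 (-0.56), Msmo1 (-0.51) and Sqle (-0.46). None of the 4 passed under scale normalization, and of 2 other tested Insig1 probes 1 gave -0.05 (adjusted p = 0.942). Of 26 chaperone genes 3 rose, led by Hsp90aa1 (0.91), a heat shock protein, with a median of 0.12. Of 17 glucocorticoid and FoxO target genes 3 rose, with a median of 0.28 beside 0.15 in wild-type mice. Markers of endothelium (2 of 11 rose), pericytes and meninges (1 of 10 fell), choroid plexus and ependyma (0 of 7) and blood (1 of 3 rose, Alas2 at 0.90) were also counted. The blood list's mean level lay at 8.78 to 9.25 at 2 months and 9.40 to 9.88 at 7 months, and at 9.04 to 9.82 and 9.82 to 10.21 in wild-type mice, and its part in the increases of immune genes was not tested. The polycomb complex list had 1 riser of 18 (Bmi1, 0.41), the oligodendrocyte precursor list 1 of 7 (Bcas1, 0.36), the neuroblast list 2 that fell of 10, the proliferation list 1 that fell of 9 (Ccnd2, -0.62), the neuropeptide list 3 that fell of 14 and the hypothalamus, thalamus and septum list 0 of 10.

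Some transcription factors known from embryonic development rose. Of 57 listed, 18 were detected often enough to be tested, and 4 rose and 1 fell, against 3.88% and 5.38% over all features. Detection on 4 striatal arrays was enough, so a gene could be tested through the older BACHD-ΔN17 arrays where it was high. With detection on at least 12 arrays, 1 was called higher and 0 lower. Wt1, a regulator of kidney and gonad development, read 6.24, 5.56, 6.32 and 5.44 at 2 months, detected in 2 of 4 mice, and 8.94, 8.31, 8.80 and 8.59 at 7 months (log2 2.77, SE 0.21, adjusted p = 7.36e-10). It was undetected in all 8 wild-type striata, and at 7 months BACHD-ΔN17 mice were at least 6.94-fold above wild-type. Hoxc6, a gene of body axis patterning, was undetected in 4 of 4 mice at 2 months, read 7.79, 6.96, 7.09 and 7.66 at 7 months, and its increase was at least 2.89-fold (fitted log2 2.52, adjusted p = 2.91e-09). Irx5, also a homeobox gene and undetected in 4 of 4 mice at 2 months, was at least 1.38-fold higher (fitted log2 1.08, adjusted p = 0.00564). The gene that fell was Hoxb3 (-0.71, adjusted p = 0.034). Onecut2, a neuronal and liver factor, read 10.50, 10.74, 10.95 and 10.64 and then 11.60, 11.38, 11.54 and 11.78 (0.86, adjusted p = 3.45e-05). It rose in wild-type mice too (0.82, adjusted p = 0.00291; interaction 0.04, SE 0.18, adjusted p = 0.948).

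Serpina9, Plin4 and Nrn1 had large changes with wide spreads. Serpina9, a protease inhibitor, was undetected in 4 of 4 mice at 2 months and read 8.79, 9.17, 9.85 and 8.89 at 7 months, at least 10.0-fold higher (fitted log2 4.29, adjusted p = 0.00707). In wild-type striatum it was detected in 3 of 4 mice at each age, with a range of 4.60 to 10.16 at 2 months, and the interaction did not pass (adjusted p = 0.121). Plin4, a coat protein of lipid droplets, read 6.46, 5.50, 6.63 and 6.06 and then 7.30, 9.97, 8.89 and 10.32, a spread of over 3 log2 units among the older mice (2.96, SE 0.58, adjusted p = 0.00127; wild-type 1.42, interaction adjusted p = 0.411). Nrn1, a membrane-anchored factor of neurite growth, read 8.43, 9.45, 8.19 and 9.31 and then 11.09, 10.27, 11.01 and 10.94 (1.98, adjusted p = 0.0123). The call was lost with the eights of internal numbers as a fixed factor (adjusted p = 0.0785) and without numbers 1 to 8 (0.06), and the interaction did not pass (2.08, adjusted p = 0.141).

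Changes with age in wild-type mice were few. Beside Onecut2, Abca8a, a lipid transporter, rose in both genotypes: from 8.44, 8.08, 8.22 and 7.24 to 9.30, 9.22, 9.78 and 9.52 in BACHD-ΔN17 mice (1.46, adjusted p = 2.26e-05) and by 1.17 in wild-type mice (adjusted p = 0.00946). The interaction was 0.29 (SE 0.29, adjusted p = 0.707). Gpx8, a peroxidase of the endoplasmic reticulum, fell by 0.58 on the log2 scale in BACHD-ΔN17 mice (adjusted p = 0.0105) and by 0.89 in wild-type mice (adjusted p = 0.00645). In BACHD-ΔN17 mice its other probes gave -0.28 and -0.16 and did not pass (adjusted p = 0.325 and 0.579), nor did the mean of its probes (0.0833). Each of the 9 named wild-type calls was lost under at least 1 other setting of the analysis. Cyp2a5, a cytochrome P450 enzyme, moved in opposite directions, from 7.93, 7.79, 7.98 and 7.83 to 6.81, 6.42, 6.65 and 6.35 in BACHD-ΔN17 mice (-1.33, adjusted p = 3.53e-05) and by 1.25 in wild-type mice (adjusted p = 0.00291). Its interaction of -2.58 (adjusted p = 1.22e-06) was the largest negative one called, while a second, dimmer probe gave -0.58 in BACHD-ΔN17 mice (adjusted p = 0.0766). Of the features called in BACHD-ΔN17 mice, 6 were called in wild-type mice in the same direction and 3 in the opposite one.

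From 7 to 11 months in BACHD-ΔN17 striatum, 23 features were called (0.205%), 3 higher (0.0267%) and 20 lower (0.178%), with 941 at an unadjusted p under 0.05. This comparison shares the 7-month arrays with the one from 2 to 7 months, so the values of both are given side by side and not related. Of the 36 projection neuron genes 9 were called lower. Scn4b lay at 12.12 to 12.52 at 11 months (-0.72, adjusted p = 0.00149), beside -1.05 from 2 to 7 months. Ddit4l lay at 7.51 to 8.18 (-0.90, adjusted p = 0.00923), Ryr1 at 5.55 to 6.81 (-1.16, adjusted p = 0.0209), Pde10a at 9.94 to 10.19 (-0.55, adjusted p = 0.0289) and Drd1 at 11.82 to 12.22 (-0.43, adjusted p = 0.021). None of the microglia and astrocyte list genes was called in this step: Gfap lay at 10.39 to 10.93 at 11 months (-0.15, adjusted p = 0.959), Lyz2 at 10.61 to 11.31 (0.21, adjusted p = 0.898) and Ccl4 at 7.46 to 9.18 (-0.99, adjusted p = 0.278). Chat lay at 9.88 to 9.92 (-0.20, adjusted p = 0.706). Scale normalization left 0 calls in this step, and leaving out 1 mouse at a time gave between 2 calls, without mouse 3 at 11 months, and 57, without mouse 4 at that age.

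In the cortices of the same 8 mice, 201 of 11573 features were called between 2 and 7 months (1.74%), 59 higher (0.51%) and 142 lower (1.23%). The change in striatum minus the change in cortex, taken within the mouse, was called for 128 features (1.11%), 68 higher (0.588%) and 60 lower (0.518%). Scale normalization called 95, 65 higher and 30 lower (68.4% higher, against 53.1%). Of 19 activated microglia genes 9 were called higher in this difference and 0 lower, and of 14 reactive astrocyte genes 6 and 0. Gfap read 7.42, 7.62, 7.50 and 7.49 in cortex at 2 months and 7.87, 7.81, 7.57 and 8.06 at 7 months, and the difference between regions was 3.09 (SE 0.37, adjusted p = 5.03e-05). Lyz2 in cortex went from 7.14, 7.63, 7.31 and 7.92 to 7.22, 7.88, 6.91 and 7.56, overlapping throughout (difference between regions 3.78, adjusted p = 0.000113). For Ccl4 and Ccl3 the differences between regions were 4.03 and 2.60 (adjusted p = 6.37e-07 for both).

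Some neuronal genes changed differently in the 2 regions. Of 36 projection neuron genes 4 were called lower in striatum than in cortex in this comparison of changes, against 0.518% over all features. Cnr1 changed by -1.43 in striatum and -0.06 in cortex (difference -1.37, adjusted p = 0.0085), and Slc18a3 by -1.11 and 0.01 (difference -1.13, adjusted p = 0.00025). For Drd2 the difference was -1.02 (adjusted p = 0.0169). Ddit4l fell in cortex too, from 12.25, 11.40, 11.50 and 11.15 to 10.56, 10.19, 9.90 and 10.36 (-1.32, adjusted p = 0.000153), and its difference between regions did not pass (-0.61, SE 0.29, adjusted p = 0.491). Ppp1r1b, at 11.19, 11.26, 11.40 and 11.18 and then 10.64, 10.41, 10.56 and 10.34 in cortex, fell there by 0.77 on the log2 scale (adjusted p = 7.47e-06). The difference between regions of 0.45 did not pass (adjusted p = 0.141). Nrn1, which rose in striatum, fell in cortex by 0.53 on the log2 scale (adjusted p = 0.000176; difference between regions 2.51, adjusted p = 0.0465).

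Of 24 listed developmental transcription factors tested for the comparison of regions, 3 were called lower and 1 higher in the difference of striatum minus cortex, against 0.518% and 0.588% of all features. Detection on 4 arrays of either region was enough, so a gene could be tested through the cortical arrays where it was high, and this count is not an independent test. En2, Pou4f1 and Gbx2 are named for having the largest differences below 0. En2, a factor of midbrain and hindbrain patterning, read 5.83, 5.37, 5.49 and 5.51 in cortex at 2 months and 9.65, 10.05, 9.68 and 9.55 at 7 months. En2 and Gbx2 are not in the list. In striatum it read 7.13, 6.95, 7.15 and 7.27 and then 8.00, 7.67, 8.04 and 7.94 (0.79, adjusted p = 0.00768), and the difference between regions was -3.40 (SE 0.23, adjusted p = 7.96e-09). Pou4f1, a factor of sensory neurons, was undetected in all 8 striata and in 4 of 4 cortices at 2 months, and read 8.04, 8.70, 8.22 and 8.16 in cortex at 7 months, at least 5.42-fold higher (difference between regions, fitted, -3.03, adjusted p = 2.33e-10). Gbx2, another patterning factor, moved in opposite directions. In striatum it went from 7.82, 8.18, 8.13 and 7.94 to 7.39, 7.40, 7.24 and 7.52 (-0.63, adjusted p = 0.0149). In cortex it was undetected in 4 of 4 mice at 2 months and read 6.70, 7.04, 6.11 and 7.24 at 7 months, at least 1.91-fold higher. Wt1 and Hoxc6 rose in both regions, and in cortex, where both were undetected in 4 of 4 mice at 2 months, they were at least 2.10-fold and at least 2.02-fold higher.

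**Figure D5:**
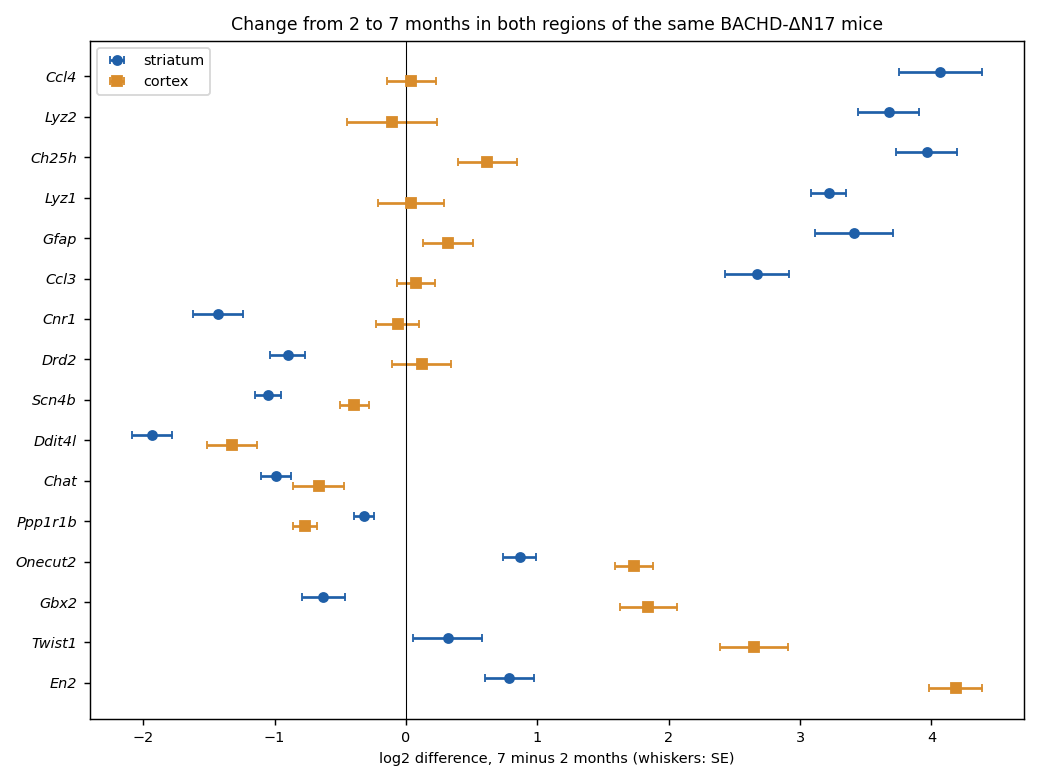
Log2 difference of 7 minus 2 months in BACHD-ΔN17 mice (horizontal axis) in striatum (blue circles) and in cortex of the same mice (orange squares) for 16 genes, with whiskers for 1 SE (4 mice per age). Ccl4, Lyz2 and Gfap lie near 0 in cortex and above 3 in striatum, Ddit4l lies below -1 in both, and En2 lies above 4 in cortex and below 1 in striatum.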

How the data were processed

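Expression was measured on 48 Illumina MouseRef-8 v2 arrays, 1 per region and mouse. Per the labels' protocols, RNA was extracted with Trizol and RNeasy columns with DNase treatment and amplified as biotin-labelled cRNA; the scanner software is not given in the sources used here. The deposited table holds linear, non-normalized intensities and a detection p-value per probe. A second deposited table holds log2 values, which matched quantile-normalized log2 intensities without background correction (largest difference of sorted values 5.0e-09); every column had a median of 7.94, genes were not centred, and the table served as an alternative.

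Here the intensities were background-corrected by normexp from the detection p-values, given an offset of 16, quantile-normalized and put on the log2 scale (neqc). The platform annotation gave 1 gene symbol for 23978 of 25697 probes and none for 1719, and for 4777 genes with several probes the brightest over all arrays was used. Features detected (p under 0.05) on at least 4 of the 24 striatal arrays were tested, 11225 of 18312. For the comparison of regions, detection on at least 4 arrays of either region was enough, and 11573 were tested. limma 3.58.1 in R 4.3.3 fitted all 24 striatal arrays with group and sex, moderated by eBayes with a trend, with Benjamini-Hochberg adjustment over all features at 0.05. Regions were compared on striatum minus cortex within the mouse. The procedure was tested on simulated data.

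Members, gene lists (739 entries, 82 not on the array, 3 matched by synonym) and tests were chosen with earlier results of these data known. Named genes are the 15 largest called changes each way, up to 6 called members each way per list, the 6 largest each way in other comparisons, and a fixed set; other names are marked where they stand. The labels' replicate numbers repeat within groups, and mice with the same number did not deviate together (correlations of -0.0154 to 0.0759), so mice were not paired. The number of arrays limits precision. Alternatives were the normalization, background correction, the authors' values, probe filter, probe averaging, arrays in the fit, sex term, trend, replicate number, internal sample numbers, and each mouse left out.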

Additional observations from a re-analysis of the deposited data

Results flagged for a closer look

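Of 204 pairs of gene and group over 51 genes, 10 held 1 mouse far from the other 3, and chance flags about 1 in 20 such groups. In BACHD-ΔN17 striatum these were Kcnd2 in mouse 1 at 7 months (11.97), Vim in mouse 4 at 2 months (8.52), Hoxc6 in mouse 1 at 2 months (4.66, undetected) and Htt in mouse 1 at 2 months (8.03). In wild-type striatum they were Ddit4l in mouse 4 at 2 months (10.67), Ch25h in mouse 1 at 2 months (5.82, undetected), Nrn1 in mouse 4 at 2 months (10.45), Atp2b1 in mouse 1 at 7 months (11.69), Gfap in mouse 1 at 7 months (8.27) and Serpina9 in mouse 2 at 7 months (4.75, undetected).

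The change from 2 to 7 months differed between the genotypes for 306 features by the interaction test. The largest differences below 0 were in Cyp2a5 (-2.58), Mas1 (-2.14), Ddit4l (-1.97), Wnt8b (-1.93), Fst (-1.90) and Ccno (-1.90). Wnt8b, a secreted signalling protein, was undetected in all 4 BACHD-ΔN17 mice at 7 months and rose in wild-type mice by 1.42 on the log2 scale (adjusted p = 0.0319). The largest above 0 were in Ccl4 (3.85), Ch25h (3.63), Gfap (3.14), Lyz1 (2.94), Wt1 (2.80) and Lyz2 (2.78).

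The change differed between striatum and cortex of the same mice for 128 features. It was lower in striatum for En2 (-3.40), Pou4f1 (-3.03), Gbx2 (-2.47), Twist1 (-2.33), Tal1 (-2.09) and Barx1 (-1.97), all transcription factors of development. Pou4f1, Gbx2, Tal1 and Barx1 were undetected in cortex at 2 months, so their values are fitted against the detection floor and have no exact size or order. It was higher in striatum for Ccl4 (4.03), Lyz2 (3.78), Ch25h (3.35), Lyz1 (3.18), Gfap (3.09) and Ccl3 (2.60), of which Ch25h and Ccl3 were undetected in striatum at 2 months.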

How the results depend on the processing

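No named change turned its direction under the alternative fits and with mice left out; among the 3 arrays of internal numbers 9 to 16, Cdkn1a (-0.13, against 0.86 over all arrays) and Slc2a1 (-0.10, against 0.44) did. Of the named genes called from 2 to 7 months in BACHD-ΔN17 striatum, 59 of 120 passed under every setting and 37 were lost when some mouse was left out; for the difference between genotypes 10 of 12 and for that between regions 12 of 12 passed throughout, against 0 of 9 in wild-type mice and 0 of 8 from 7 to 11 months.

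Counts of calls moved by over 1.5 times as follows, and the cause was not tested. From 2 to 7 months in BACHD-ΔN17 striatum (1040 calls), scale normalization gave 330, the eights of internal numbers as a fixed factor 683, and mice left out 610 to 993, the lowest without mouse 3 at 7 months. In wild-type mice (12) there were 5 with scale normalization, 1 with these groups alone, 21 and 22 with the eights as a fixed factor and a random block, 19 with numbers 1 to 32 against 33 to 48 as a factor, 5 with numbers 1 to 32 alone, 5 without numbers 1 to 8, and 3 to 15 with mice left out. For the difference between genotypes (306) there were 74 with scale normalization, 124 with numbers 1 to 32 alone, and 180 to 356 with mice left out, the lowest without the same mouse 3 and 187 without wild-type mouse 2 at 2 months. From 7 to 11 months (23) there were 0 with scale normalization, 9 without background correction and 9 with the authors' log2 values, 15 without the filter, 14 with averaged probes, 10 with these groups alone, 2 without a trend, 43 with the sets of numbers as a factor, and 2 to 57 with mice left out. Between regions (128) there were 69 with these groups alone and 48 to 92 with mice left out, the lowest without mouse 3 at 7 months.

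With the labels' replicate number as a block, though it pairs no mice, the counts were 823, 4, 154, 0 and 87 in the same order. Genes at the detection floor at 1 age have differences that the array's background limits.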
